A study of Mus musculus with 29 samples.

Results

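DNA methylation at CpG sites was compared between pancreatic islets of old mice on a high-fat diet and islets of old mice on a standard diet. Every fixed 1 kb window of the mouse genome (mm10) with at least 20 bisulfite reads over its CpGs in each of the 7 libraries was kept, which left 1030 windows of the 531079 with any read in these libraries, and of 825670 in the whole series. The mice were wild-type male C57BL/6 animals of 52 weeks, and they ate their diet for 1 week. Fat supplied 13.1% of kcal in the standard diet, given to 4 samples, and 41% in the high-fat diet, given to 3 samples, numbered 1, 2 and 4. The labels do not say whether a library came from 1 animal or from pooled animals, so the p-values measure the spread between libraries. Islets of mice of 8 weeks on the same diets, 4 libraries each, served only to test whether a diet difference depended on age.

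In mammals, DNA methylation is carried mainly by the cytosine of a C followed by a G, the CpG. Most CpGs are methylated, whereas clusters of CpGs at the start of many genes, called CpG islands, are usually free of it. At imprinted genes 1 parental copy is methylated and the other is not, so that a mixture of copies gives an intermediate level. In beta cells, the insulin-producing cells of the islet, the cell cycle genes are of interest because these cells must divide if the islet is to grow, and division becomes rare with age.

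The windows covered a small and selected part of the genome. Of the 1030, 947 lay in 29 loci of at least 8 neighbouring windows each, and the other 83 were scattered. The loci are called captured here only because tested windows were dense in them. How regions were selected is not given in the sources used here. Mitosis and cell cycle genes lay in 18 of the loci: Cdk1, Ccna2, Ccnb1 and Ccnb2 (the kinase and cyclins that drive entry into mitosis), Plk1, Ttk, Cdc20, Ube2c, Kif20a, Top2a, Nusap1, Ect2, Hmmr, Cdca2, Cdca3, Stmn1, H2afx and the proliferation marker Mki67. Ccnd1 and Ccnd2, the D cyclins of the G1 phase, and Cdkn1a and Cdkn2c, inhibitors of cyclin-dependent kinases, had 1 locus each. Txnip (an inhibitor of thioredoxin that responds to glucose), Mlxipl (the glucose-responsive transcription factor ChREBP), Odc1 (polyamine synthesis), Rgs2, Bag3 and the cytokine gene Il1b also had 1 each. The longest locus, with 147 windows on chromosome 7, held the imprinted genes H19 and Igf2 and the insulin gene Ins2. The scattered windows lay among others at histone genes and at pseudogenes of captured genes. Myc, Cdkn2a, Gcg and Pdx1 had no window with enough reads, so nothing can be said of them from these data.

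Each library held 488262 to 631991 reads over CpGs, of which 25.7 to 28.9% fell in the tested windows. The median window held 92 to 136 reads per library. All 436 reads over CpGs of the mitochondrial genome in the 7 libraries were unmethylated, which allows a share of methylated reads of up to 0.688%, counting error only. No pair of libraries stood apart in the CpG sites they shared. An islet library mixes cell types, and a level is an average over them, so a change in the make-up of the islet and a change within a cell type cannot be told apart.

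The sequences upstream of 4 genes show what the levels below rest on. RefSeq promoters (GRCm38.p6, the build of these files) are given here from 250 bases before the gene start up to the start, 5′ to 3′, with each CpG in capitals. Txnip and Mki67 stand for the CpG-rich promoters that most captured genes have, Cdkn1a for a gene with a second, CpG-rich start inside the gene, and Il1b for a promoter with few CpGs.
Txnip, chr3:96557707-96557956, plus strand: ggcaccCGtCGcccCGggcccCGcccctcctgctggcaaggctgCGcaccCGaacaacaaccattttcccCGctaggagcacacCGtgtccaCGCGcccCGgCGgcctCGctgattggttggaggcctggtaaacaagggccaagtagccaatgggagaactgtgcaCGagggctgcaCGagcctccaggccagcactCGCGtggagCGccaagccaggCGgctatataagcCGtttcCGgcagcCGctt
Mki67, chr7:135716380-135716629, minus strand: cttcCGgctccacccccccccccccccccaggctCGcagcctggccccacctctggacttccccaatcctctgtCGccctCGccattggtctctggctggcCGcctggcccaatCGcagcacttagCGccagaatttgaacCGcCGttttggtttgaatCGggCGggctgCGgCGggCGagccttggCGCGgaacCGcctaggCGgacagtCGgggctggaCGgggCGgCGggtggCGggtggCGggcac
Cdkn1a, chr17:29093519-29093768, plus strand: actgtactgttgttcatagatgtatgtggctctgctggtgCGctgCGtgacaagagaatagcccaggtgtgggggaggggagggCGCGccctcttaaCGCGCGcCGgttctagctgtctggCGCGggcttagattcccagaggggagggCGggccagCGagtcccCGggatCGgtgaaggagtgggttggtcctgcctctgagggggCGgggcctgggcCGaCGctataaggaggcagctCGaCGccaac
Il1b, chr2:129371140-129371389, minus strand: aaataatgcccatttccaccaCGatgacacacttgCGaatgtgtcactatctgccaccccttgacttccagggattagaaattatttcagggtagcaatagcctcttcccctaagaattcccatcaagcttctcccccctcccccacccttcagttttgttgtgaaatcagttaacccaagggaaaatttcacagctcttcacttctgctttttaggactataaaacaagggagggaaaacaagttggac
These stretches hold 22 CpGs for Txnip, 24 for Mki67, 19 for Cdkn1a and 2 for Il1b. Each RefSeq promoter used below adds the 50 bases after the start.

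CpG-rich promoters were almost free of methylation on either diet. Of 51 RefSeq promoters in the loci, 41 had at least 20 reads in every library. Levels were under 10% on both diets at 34 of them, which held 8 to 42 CpGs. Levels were over 50% on both diets at 5 promoters, which held 3 to 8 CpGs. Among the 35 promoters with 10 or more CpGs, 33 were under 10%. Of all 32817 RefSeq promoters, 43.4% have 10 or more CpGs, against 68.6% of those in the loci. At the Txnip promoter the 4 standard-diet libraries had 0, 0.489, 0 and 0% methylation, and the 3 high-fat libraries 0% each. At the Mki67 promoter they had 0, 0, 4 and 0.685% on the standard diet and 0, 0 and 0.99% on the high-fat diet. At the inner Cdkn1a promoter the standard-diet mean was 0.82% ± 1.64 (SD, n = 4) and the high-fat mean 0.285% ± 0.493 (SD, n = 3). The groups overlapped at all 3 of these promoters.

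The Il1b promoter was the only one of the 41 at which the diets did not overlap, which is 2.44% of them. Il1b encodes interleukin-1 beta, an inflammatory cytokine. Its 3 CpGs were methylated at 84, 82.1, 91.3 and 82.4% in the standard-diet libraries, and at 73.5, 67.4 and 80.6% in the high-fat libraries, from 23 to 50 reads each. The high-fat libraries all lay below the standard-diet libraries (two-sided exact permutation p = 0.0571, the smallest that 3 against 4 samples allow, and 1 after Benjamini-Hochberg adjustment over the 41 promoters). Over the wider stretch of 500 bp on either side of the Il1b start the levels were 83.3% ± 4.64 (SD, n = 4) and 81.5% ± 5.41 (SD, n = 3). Igf2 shows how promoters of a single gene can differ: the levels at the start at 142658804 (24 CpGs) were 1.33% ± 0.97 and 1.77% ± 1.16, and those at 142661271 (14 CpGs) were 21.5% ± 8.4 and 26.7% ± 6.23 on the standard and the high-fat diet. Mlxipl likewise had levels of 16% ± 4.16 and 17.3% ± 6.75 at its start at 135089890, and 0.323% ± 0.374 and 0.546% ± 0.946 at 135106891.

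Methylation was lowest at gene starts and reached a plateau within a few kb, on either diet. In windows centred within 0.5 kb of a start (42 windows) the mean level was 13.9% ± 0.577 (SD, n = 4) on the standard diet and 14.2% ± 0.538 (SD, n = 3) on the high-fat diet. At 1 kb upstream the means were 54.5% ± 1.17 and 53.9% ± 0.615, and at 1 kb downstream 28.1% ± 0.455 and 28.3% ± 1.48. At 9 kb downstream they were 82.8% ± 1.26 and 83% ± 0.77. The difference between diets was between -0.66 and 1.3 percentage points at every distance.

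**Figure D1:**
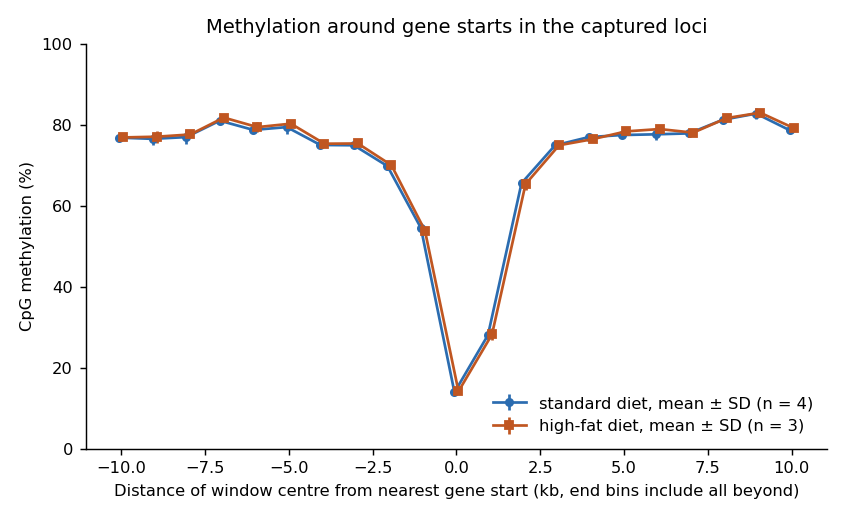
Mean CpG methylation in percent (vertical axis) of 1 kb windows of the captured loci against the distance of the window centre from the nearest gene start in kb (horizontal axis), for the standard diet (circles, n = 4) and the high-fat diet (squares, n = 3), with SD as error bars. The curves lie on each other, with 13.9 and 14.2% at the start.

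Of 47 gene starts with enough reads within 500 bp on either side, 37 had levels under 5%, 4 had 5 to 20% and 6 had over 50%. Among the methylated starts were the annotated starts of Cdkn1a (77% ± 8.58 on the standard diet, 74.3% ± 4.59 on the high-fat diet), Il1b, Tnnc2, Gnb3 and Igf2 (75.7% ± 6.22 and 71.8% ± 4.48). Stmn1, which encodes a protein that destabilises microtubules, had the smallest p of the 47, with 0.109% ± 0.129 and 1.02% ± 0.429 (adjusted p = 0.963 over 76 loci and gene starts, quasi-binomial test moderated by limma). Of those 76 units, 0 passed the adjusted threshold of 0.05 and 2 (2.63%) had an unadjusted p under 0.05.

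Some stretches of low methylation reached far beyond the gene start. Of the 98 windows under 20% in the loci, 61 lay at a gene start and 37 away from one. The D cyclin genes had the broadest. At Ccnd2 the window centred 2548 bp into the gene had 12.5% on the standard diet and 12.4% on the high-fat diet, and that at -4452 bp, upstream of the start, had 10.8 and 11.6%. Between them, the windows at 1548 and -1452 bp had 0.827 and 1.28% on the standard diet and 0.764 and 0.784% on the high-fat diet. At Ccnd1 the windows at -1631, -2631 and -3631 bp had 0.764, 1.66 and 2% on the standard diet and 1.15, 2.81 and 2.05% on the high-fat diet. The smallest p of these D cyclin windows was 0.0883, unadjusted.

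The captured loci had much the same level on the 2 diets. With each window of a locus weighted equally, levels ran from 36.5% at Txnip and 40.7% at Ccnd1 to 83% at Mki67 on the standard diet. The difference, high-fat minus standard, ran from -1.05 percentage points at Mlxipl (95% interval -2.7 to 0.595) to 2.18 at Cdkn2c (0.319 to 4.04). The limma test called 0 of the 29 loci, with 1 at an unadjusted p under 0.05 and a smallest adjusted p of 0.75. The libraries of the diets did not overlap at 1 locus, that of Ccna2 (3.45% of the loci), with 75.3% ± 0.535 (SD, n = 4) and 76.2% ± 0.448 (SD, n = 3). High-fat levels were higher at 16 of the 29 loci. When the reads were summed over a locus instead, so that windows with more reads weighed more, they were higher at 27 of 29, with a median difference of 1.17 points against 0.10. The share of tested reads that fell in windows under 20% was 22.3% ± 1.98 on the standard diet and 20.9% ± 1.34 on the high-fat diet (two-sided exact permutation p = 0.4, n = 4 and 3). Its part in the count by reads was not tested.

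**Figure D2:**
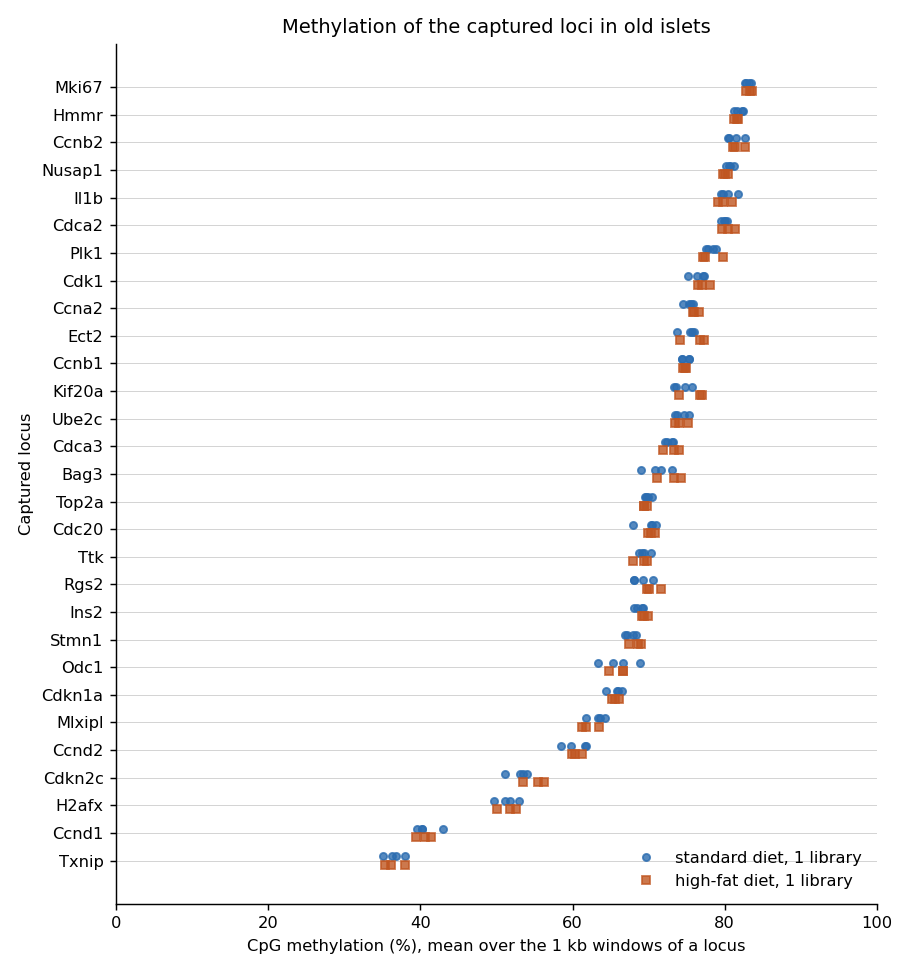
CpG methylation in percent (horizontal axis) of each of the 29 captured loci (vertical axis, named by a gene in each), as the mean over its 1 kb windows, with 1 point per library (circles for the standard diet, squares for the high-fat diet). The points of the diets intermingle at 28 loci, from about 36.5% at Txnip to 83% at Mki67.

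Averaged over all tested reads, methylation was 61, 59.8, 62.6 and 64.1% in the standard-diet libraries and 63.9, 64.3 and 61.6% in the high-fat libraries. The means were 61.9% ± 1.87 (SD, n = 4) and 63.3% ± 1.45 (SD, n = 3), and the groups overlapped (two-sided exact permutation p = 0.343). With windows weighted equally the means were 70.8% ± 0.439 (SD, n = 4) and 71% ± 0.43 (SD, n = 3; two-sided exact permutation p = 0.4). Gene bodies, with 495 windows, had 74.3% ± 0.72 and 74.9% ± 1.24, and intergenic windows, of which there were 436, had 70.2% ± 0.98 and 70.8% ± 0.833.

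Window by window, no diet difference passed the test. The quasi-binomial test called 0 of 1030 windows (0%) at an adjusted p under 0.05, with a smallest adjusted p of 0.189, and 47 windows (4.56%) at an unadjusted p under 0.05. edgeR called 0, with 41 at an unadjusted p under 0.05, and limma called 0, with 49. The diets did not overlap at 50 windows (4.85%). High-fat levels were higher at 555 windows (53.9%), with a median difference of 0.23 percentage points. The diets differed by at most 5 points at 878 windows (85.2%) and by more than 10 at 14. The median 95% interval of a window reached 6.71 points to either side, so at most windows differences of a few points were not detectable at this depth. Larger differences could be missed too. In simulated reads with the coverage of these libraries, the quasi-binomial test called 5 of 40 windows shifted by 5 points. It called 17 of 40 shifted by 10 points and 30 of 40 shifted by 15 points. All shifts, of 5 to 30 points, were placed in the same run, which left only 830 of the 1030 windows unshifted. The Benjamini-Hochberg adjustment is stricter where few windows differ, so these shares would be lower there. That setting was not simulated.

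**Figure D3:**
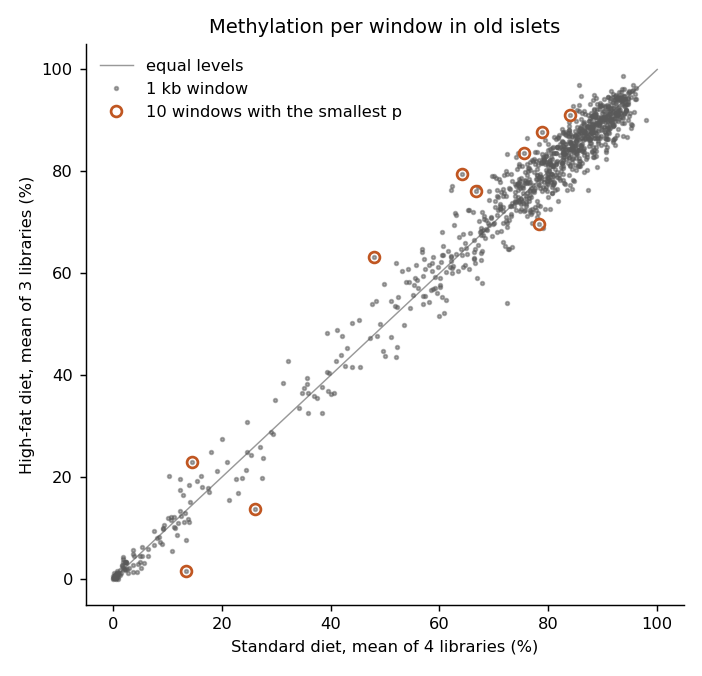
Mean CpG methylation in percent of each of the 1030 windows on the standard diet (horizontal axis, 4 libraries) and on the high-fat diet (vertical axis, 3 libraries), with the line of equal levels and circles around the 10 windows with the smallest p. Most windows lie along the line, and 14 are more than 10 points from it.

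The gene lists matched the windows as a whole in that no window passed the adjusted threshold, but their shares at an unadjusted p under 0.05 varied. The list of Myc and cell cycle genes had windows at 8 of its 29 genes, and 8 of those 116 windows (6.9%) had an unadjusted p under 0.05, against 4.56% of all windows. Their median difference was 0.13 points, against 0.23 over all windows. Imprinted genes had 25 windows, at H19 and Igf2, of which 2 had an unadjusted p under 0.05. The lipid and nutrient metabolism list had 20 windows, at Txnip and Mlxipl, of which 4 (20%) had an unadjusted p under 0.05, with a median difference of -0.28 points. Beta cell genes had 12 windows, at Ins1 and Ins2, of which 0 had an unadjusted p under 0.05. None of these windows passed the adjusted threshold, and the other 6 lists had no window.

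The smallest p of all windows belonged to the end of Txnip. Txnip RNA is known to rise with glucose, and the protein promotes beta cell death. The window at chr3:96561001-96562000 spans the 3′ end of the gene (chr3:96557957-96561883). Its methylation was 27.9, 29.7, 18.5 and 28.3% in the standard-diet libraries and 11.5, 16.7 and 13.2% in the high-fat libraries, from 139 to 234 reads each. All 3 high-fat libraries lay below all 4 standard-diet libraries. The means were 26.1% ± 5.1 (SD, n = 4) and 13.8% ± 2.62 (SD, n = 3), a difference of -12.3 points (95% interval -19.4 to -5.17). The quasi-binomial test moderated by limma gave p = 2.02e-04 before and 0.189 after adjustment over all windows. In young islets the means were 20.8% ± 2.49 and 19.2% ± 5.05 (SD, n = 4 each), and the interaction of diet and age had a p of 0.00955 before and 0.986 after adjustment in the quasi-binomial test.

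The rest of the Txnip locus went in either direction. High-fat levels were higher at 9 of its 17 windows, with differences from -12.3 to 9.02 points. Of the 17, 4 had an unadjusted p under 0.05, 3 of them lower and 1 higher on the high-fat diet. The neighbouring window at chr3:96560001-96561000 had 5.24% ± 3.42 and 2.17% ± 0.715 (quasi-binomial p = 0.0121, adjusted 0.908), and the window at chr3:96555001-96556000, upstream of the gene, had 13.5% ± 2.88 and 7.67% ± 3.53 (p = 0.0213, adjusted 0.908). In the opposite direction, window chr3_96563 at chr3:96563001-96564000, downstream of Txnip and within its antisense gene Gm15441, had 62.9% ± 7.28 and 71.9% ± 5.38 (p = 0.0302, adjusted 0.977, all by the quasi-binomial test). In each of these the libraries of the diets overlapped. Over the whole gene the levels were 6.71% ± 1.68 (SD, n = 4) and 3.94% ± 0.705 (SD, n = 3; two-sided exact permutation p = 0.114). Over the whole locus they were 36.5% on each diet, with a difference between -1.8 and 1.79 points (95% interval).

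**Figure D4:**
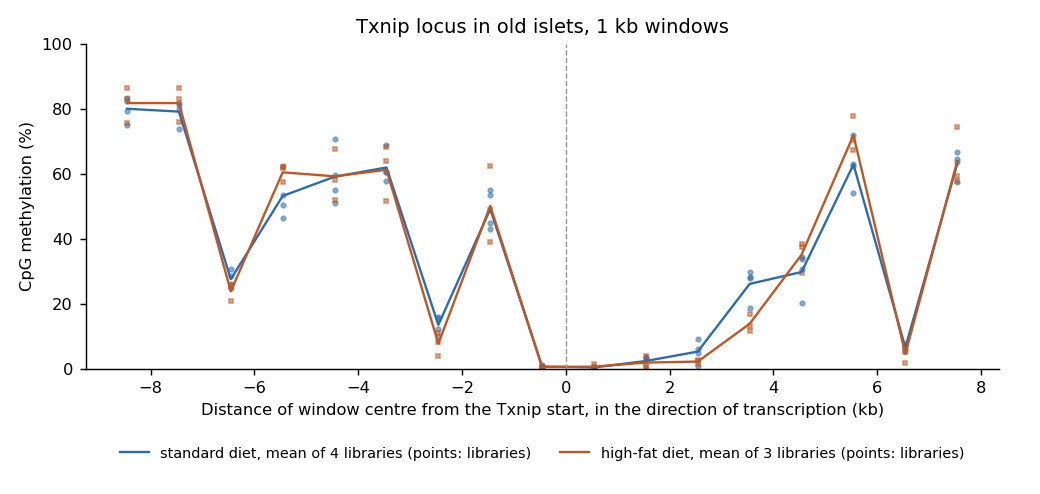
CpG methylation in percent (vertical axis) of the 17 windows of the Txnip locus against the distance of the window centre from the Txnip start in kb (horizontal axis), with 1 point per library and lines for the mean of each diet. The lines part at the 3′ end of the gene, where the means were 26.1% on the standard diet and 13.8% on the high-fat diet.

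Of the other 9 windows with the smallest p, 5 lay in loci of cell cycle genes or of Igf2 and in genes or near their starts. In Cdca2, a regulator of chromatin at the exit from mitosis, the window at chr14:67678001-67679000 had 78.3% ± 3.11 and 69.7% ± 5.49, without overlap (p = 0.00143, adjusted p = 0.369, quasi-binomial test moderated by limma). In Ube2c, the ubiquitin-conjugating enzyme of the anaphase-promoting complex, the window at chr2:164771001-164772000 had 66.7% ± 4.06 and 76.2% ± 4.51, without overlap. In Mki67 the window at chr7:135693001-135694000 had 84% ± 2.16 and 91% ± 4.29, also without overlap. Upstream of the Cdk1 start the window at chr10:69353001-69354000 ranged from 4.66 to 31.6% among the standard-diet libraries and from 15.1 to 30% among the high-fat libraries, and the groups overlapped widely. At the end of Igf2 the window at chr7:142650001-142651000 had 78.8% ± 5.18 and 87.7% ± 4.98, with overlap. The differences thus went in either direction, and the smallest adjusted p of these 5 windows was 0.369 (quasi-binomial test).

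The remaining 4 windows of the 10 lay between genes or in a predicted gene. At chr7:142565001-142566000, 6405 bp from Nctc1, levels were 49, 39.9, 51.9 and 51.1% on the standard diet and 65.8, 62.2 and 61.4% on the high-fat diet, without overlap (p = 0.00143, adjusted 0.369, quasi-binomial test). At chr7:142600001-142601000 they were 75.6% ± 6.18 and 83.6% ± 2.46. At chr5:95974001-95975000, 12934 bp from Cxcl13, they were 46.1, 75.8, 68 and 66.7% on the standard diet and 81.5, 81 and 75.7% on the high-fat diet, which overlap at a single pair of libraries. Without standard-diet library 2 this window was the only 1 of 1030 to pass, with a difference of 19.1 points (adjusted p = 0.00157). At chr17:39843001-39844000, in the predicted gene Gm26917, levels were 4.11, 25.4, 13.6 and 10.5% on the standard diet and 3.45, 0 and 1.59% on the high-fat diet, from 29 to 76 reads each.

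In the H19 and Igf2 locus, the stretch around and upstream of the H19 start showed the intermediate levels of an imprinted region. H19 is a non-coding RNA expressed from the maternal copy, Igf2 encodes a growth factor expressed from the paternal copy, and the control region upstream of H19 is methylated on the paternal copy. From 2 to 4 kb upstream of the H19 start, where that region lies, levels were 42.3, 48.8, 44.2 and 41.9% on the standard diet and 48.5, 48.4 and 58.1% on the high-fat diet, from 427 to 851 reads each. The means were 44.3% ± 3.14 (SD, n = 4) and 51.7% ± 5.55 (SD, n = 3), and the groups overlapped (two-sided exact permutation p = 0.171). In young islets they were 52.3% ± 2.68 and 51.8% ± 4.79. Around the H19 start the means were 51.9% ± 8.48 and 51% ± 2.23, and over the Igf2 gene 36.4% ± 2.4 and 37.3% ± 5.22. The Igf2 value averaged unlike windows and is not itself an intermediate level of this kind. The window at chr7:142658001-142659000 had 2.91 and 2.18%, and that at chr7:142650001-142651000, at the end of the gene, had 78.8 and 87.7%, on the standard and the high-fat diet.

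**Figure D5:**
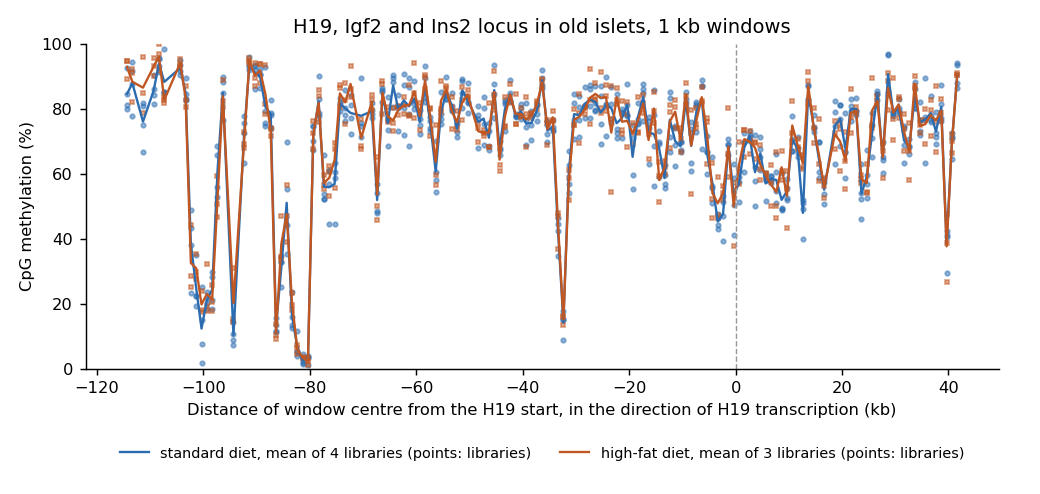
CpG methylation in percent (vertical axis) of the 147 windows of the H19, Igf2 and Ins2 locus against the distance of the window centre from the H19 start in kb (horizontal axis, negative towards Igf2 and Ins2), with 1 point per library and lines for the mean of each diet. Levels near 50% upstream of H19 (44.3 and 51.7% from 2 to 4 kb) contrast with the low stretch in Igf2.

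The insulin genes were only partly methylated at their starts. The RefSeq Ins2 gene spans chr7:142678656-142679726, whereas the annotation in the deposited tables extends it to 142699510. The window that holds the RefSeq start, chr7:142679001-142680000, had 19.2, 22.3, 22.3 and 35% on the standard diet and 35.3, 29.9 and 27.5% on the high-fat diet, with overlap (quasi-binomial p = 0.145). The 11 windows assigned to Ins2 by the longer annotation had median levels of 86% and no unadjusted p under 0.05. At Ins1 the only window had a mean of 18.8% over all libraries (p = 0.735, quasi-binomial test). Its libraries scattered widely, from 26 to 61 reads each. They had 31.1, 31.4, 9.68 and 13.1% on the standard diet and 0, 14 and 32.7% on the high-fat diet. The 20 windows at Ccnd2 likewise had no unadjusted p under 0.05, and the 28 at Mki67 had 2.

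RNA of the same kinds of old islets was set beside these levels for the captured genes. The RNA libraries are separate samples in the labels, which do not say whether they share mice with the methylation libraries. Libraries that were nearly the same in immunoglobulin V gene counts were summed, which left 3 samples per diet. Txnip RNA was 660, 520 and 710 CPM (counts scaled to the library's total) on the standard diet and 1111, 933 and 878 CPM on the high-fat diet, without overlap. The authors' deposited table gives Txnip a log2 fold change of 0.75 (adjusted p = 2.49e-17, DESeq2). The mean counts in that table equal those of RNA replicates 1 to 3 of each diet for 100% of 16844 genes (within 0.1%), and these 6 libraries hold no such near-identical pair. The loci may not be a random choice of genes, since how regions were selected is not given in the sources used here. Of 54 genes in the loci with an adjusted p in the authors' deposited table, 10 (18.5%) were past 0.05, all higher on the high-fat diet, against 6.43% of all genes in that direction. They were Txnip, Cdkn1a (log2 fold change 0.91, adjusted p = 7.07e-11), Cdkn2c (0.57), Odc1 (0.55), Bag3 (0.77), Il1b (0.54, adjusted p = 0.0412), Hmmr (0.53, adjusted p = 0.0485), Ccnd1 (0.26, adjusted p = 0.0203), Ccng1 and Dpagt1. Of these genes, the promoters of Txnip, Cdkn1a (inner start), Odc1, Bag3 and Hmmr had under 2% methylation on each diet. Il1b had the partly methylated promoter described above. Within 500 bp of the gene start, Ccnd1 had 0.325 and 0.395%, and Cdkn2c had 7.13 and 8.42%, on the standard and the high-fat diet. Cdk1 RNA was 1.29 ± 1.1 CPM on the standard diet and 2.3 ± 0.556 CPM on the high-fat diet (SD, n = 3 each), for which the authors' deposited table lists an adjusted p of 0.382 (DESeq2), and its promoter had 0.622% and 0.218% methylation.

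Markers of other cells were present in the RNA. The summed level of 6 acinar markers was 47782 to 127709 CPM on the standard diet and 52750 to 106822 CPM on the high-fat diet, and that of 6 beta cell markers 164010 to 238088 and 211744 to 240500 CPM. The groups did not overlap for 3 of 12 cell types (25%), all of them lower on the high-fat diet: macrophages, the PP cell with its single marker, and Schwann cells. With only 3 RNA samples per diet, groups can separate without any effect of diet. The share of all genes without overlap was not computed, so no shift in cell make-up can be read from this count. The 4 macrophage markers summed to 65.3 to 192 CPM on the standard diet and 36.3 to 59 CPM on the high-fat diet. The PP cell marker was at 1328 to 2211 and 907 to 1218 CPM. The 4 Schwann cell markers, of which only 2 were over 1 CPM, summed to 11.4 to 13.1 and 9.49 to 10.5 CPM. Their part in the methylation levels was not tested.

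The diet difference was not shown to depend on age. In young islets the quasi-binomial test called 0 of 1070 windows (0%), with 55 (5.14%) at an unadjusted p under 0.05. The interaction of diet and age called 0 of 1020 windows (0%), with 46 (4.51%) at an unadjusted p under 0.05 and a smallest adjusted p of 0.173.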

How the data were processed

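Islet DNA of old mice was measured by bisulfite sequencing in 7 libraries, grouped by diet as the labels give it. Per the submitters' processing notes, tools for these files include Trimmomatic, BSMAP and bedtools, with mm10 as the build; how regions were selected is not given in the sources used here. The files deposited by the authors list CpG sites by strand, each with a count of covering reads and, as a percent, how many of those read C or T. Methylated reads (coverage times percent with C) were whole at every site and were summed over strands in fixed windows of 1000 bp, kept at 20 reads or more in every library. The reads carry no molecular identifiers, so copies of a molecule may be counted more than once. Windows were tested with a quasi-binomial model (R 4.3.3), with a dispersion moderated by limma 3.58.1 and held at 1 or above, and Benjamini-Hochberg adjusted p-values with a threshold of 0.05. edgeR 4.0.16 was run on methylated and unmethylated counts as an alternative, and limma on percent levels gave the 95% intervals. Means per library were compared by exact permutation tests (scipy 1.17.1). A locus is a run of at least 8 tested windows, with gaps of up to 20 windows, that fill 70% or more of its span. A window belongs to a gene if it touches it or the 2000 bp upstream. The fit was tested on simulated data.

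The members, the 10 gene lists and the tests were chosen with earlier results of these data known. Named windows are the 10 with the smallest p, up to 3 with the smallest p for each list, and those at Myc, Cdkn2a, Ccnd2, Mki67, Ins1, Ins2, Gcg and Pdx1. Locus, gene start and promoter units were added after seeing the data.

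RNA served as a description. STAR 2.4.2a and featureCounts 1.4.3 are named for it in the submitters' processing notes. The counts per Ensembl gene deposited by the authors were scaled to CPM, and gene coordinates come from the same tables. The authors' deposited DESeq2 table gives log2 fold changes and adjusted p-values. Whether strand was used in counting is not given in the sources used here, so genes that overlap on opposite strands, such as Txnip and Gm15441, may share counts. Within each diet, RNA libraries whose immunoglobulin V counts correlated at 0.971 and 0.981 (Spearman, across 124 genes, against 0.169 to 0.527 for other pairs) were summed. RNA totals were 68395276 to 77267767 counts per library.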

Additional observations from a re-analysis of the deposited data

Results flagged for a closer look

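Of 63 sets of 4 standard-diet libraries examined, 3 held a library far from the others, where chance gives about 1 in 20. Standard-diet library 3 was that library each time: it had 18.5% in the Txnip window at chr3:96561001-96562000, against 27.9 to 29.7% in the others, 60.7% in the Ube2c window at chr2:164771001-164772000, against 68.2 to 69.5%, and 82.4% in the window at chr7:135718001-135719000 upstream of Mki67, against 89.6 to 91%. These windows were named for their small p, so the sets are not a random choice.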

How the results depend on the processing

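Leaving out each library in turn gave 0 to 1 called windows for the diet in old islets and 0 to 1 for the interaction. The called windows were the one near Cxcl13 without standard-diet library 2, one in Dlgap1 without standard-diet library 4 (interaction adjusted p = 0.00176) and one in the H2afx locus without high-fat library 2 (interaction adjusted p = 0.0146). Every other planned setting of window size, shift, read minimum, coverage, dispersion and tool called 0 windows, with 19 of 767 single CpG sites to 72 of 1562 windows of 500 bp at an unadjusted p under 0.05. The fit with the replicate block also called 0, with 37 at an unadjusted p under 0.05. Same-numbered libraries had correlations of deviations of 0.022, -0.0455 and -0.0137, against -0.0171 to 0.0344 for pairs with different numbers. Counting noise within a window can hide a shared source, so these values do not decide whether same-numbered libraries share more than a number. Loci higher on the high-fat diet numbered 14 to 23 with a library left out and 27 by reads. The difference of the library means was 0.704 to 2.24 points with a library left out. It turned to -0.11 points at gene starts and to -0.35 in scattered windows when windows weighed equally, and with a library left out it was -0.86 to 0.78 in scattered windows and -0.0359 to 0.426 in windows over 80%; the cause was not tested. All 231 refits of the 18 named windows kept their direction. Only refits without a library could change it, because the difference is taken between library means. These windows were also named for their small p in the same data. The median coverage of a CpG site was 1, so most of the genome was not tested.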
